A study of Homo sapiens with 16 samples.

Results

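The gene set described here is 8 genes of cholesterol synthesis and its control, HMGCS1, MVD, IDI1, FDFT1, SQLE, DHCR7, INSIG1 and SREBF2, chosen by name from the RNA-seq of bladder cancer cells treated with CM-1758. All 8 were among the 35993 gene symbols counted, and all 8 were among the 21297 genes with enough counts to be tested. The set carries the working name of synthesis and uptake genes, but none of the 8 acts in uptake: 6 are enzymes of the synthesis pathway and 2, INSIG1 and SREBF2, are regulators, so they are treated below as cholesterol synthesis enzymes and their SREBP2 regulators. Uptake genes are given separately.

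CM-1758 is an inhibitor of histone deacetylases, the enzymes that remove acetyl groups from histones and other proteins. The established bladder cancer lines 253J, J82, RT112 and TCCSUP each received CM-1758 at that line's own IC50, or 0.01% DMSO as vehicle control, for 48 h, and total RNA was sequenced in 2 libraries for each of the 8 groups. Each line was therefore given its own dose, and a difference between lines cannot be told apart from a difference in dose. The paper's figure legends for the RNA-seq describe the controls as untreated cells and name no vehicle. Libraries held between 22506431 and 32537104 counts, and the treated libraries (median 23590242) were shallower than the controls (median 29363076). A group of 7 abundant small noncoding RNAs took 9.58% to 13.2% of counts in control and 10.2% to 21.3% in treated libraries, highest in treated TCCSUP, and their part in the results was not tested beyond leaving them out before scaling, which moved no call of the 8 genes except that of SREBF2 in J82. The study's methods describe the libraries of a group as independent biological replicates, and the p-values measure the spread between them. In bulk RNA of this kind, fewer cells of a kind and less RNA per cell cannot be told apart.

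Cells make cholesterol from acetyl-CoA through mevalonate, isoprenoids, squalene and sterols. The transcription factor SREBP2, encoded by SREBF2, switches on most genes of the pathway. When sterols are plentiful, SREBP2 is held in the endoplasmic reticulum by SCAP together with INSIG proteins, and when sterols run low it is cut, enters the nucleus and binds sterol regulatory elements, usually beside sites for NF-Y and Sp1. INSIG1 is itself a target of SREBP2, and so is SREBF2, so the pathway feeds back on its own control.

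The windows from 250 bases before to 50 bases after each start in the RefSeq promoter table (GRCh38.p14) covered 6 of the 8 genes in 10 windows; SQLE and FDFT1 had no entry. The counts themselves were made on GRCh37, so these coordinates are those of the RefSeq table alone. The stretch of 250 bases before the start is shown for 2 genes that rose most in 253J (HMGCS1 at chr5:43313413-43313662 and IDI1 at chr10:1049120-1049369, both on the minus strand) and for 2 that fell there (SREBF2 at chr22:41832855-41833104 on the plus strand and DHCR7 at chr11:71448394-71448643 on the minus strand), with capitals marking the sterol element core TCACNCCAC and the NF-Y box CCAAT, searched on both strands.
HMGCS1: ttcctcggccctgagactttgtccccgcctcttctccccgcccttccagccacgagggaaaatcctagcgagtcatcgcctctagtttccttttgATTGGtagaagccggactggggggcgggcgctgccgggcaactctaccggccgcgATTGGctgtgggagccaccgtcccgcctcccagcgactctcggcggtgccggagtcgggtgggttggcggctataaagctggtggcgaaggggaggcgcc
IDI1: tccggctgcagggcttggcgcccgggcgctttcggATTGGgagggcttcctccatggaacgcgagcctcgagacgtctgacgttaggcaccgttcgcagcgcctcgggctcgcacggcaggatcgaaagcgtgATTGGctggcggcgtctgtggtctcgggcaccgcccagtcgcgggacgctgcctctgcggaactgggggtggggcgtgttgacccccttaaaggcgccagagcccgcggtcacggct
SREBF2: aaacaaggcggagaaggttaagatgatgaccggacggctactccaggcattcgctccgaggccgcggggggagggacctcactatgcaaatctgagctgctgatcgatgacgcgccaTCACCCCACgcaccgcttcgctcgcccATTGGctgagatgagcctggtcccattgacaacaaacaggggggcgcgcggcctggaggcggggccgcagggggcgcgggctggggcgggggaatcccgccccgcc
DHCR7: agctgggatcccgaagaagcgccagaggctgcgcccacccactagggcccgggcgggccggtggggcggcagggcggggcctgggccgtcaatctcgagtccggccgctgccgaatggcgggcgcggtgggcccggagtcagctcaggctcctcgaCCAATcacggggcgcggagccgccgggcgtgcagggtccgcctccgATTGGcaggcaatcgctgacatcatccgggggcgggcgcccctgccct
The sterol element core was found in 1 of the 10 windows, that of SREBF2, as TCACCCCAC with its first base 133 bases before the start, and 1.13% of the 35116 windows of the table hold it. The CCAAT box was found in 7 of the 10 windows, which belong to all 6 genes, and 34.6% of all windows hold it. GGGCGG, the Sp1 GC box, was found in 9 of the 10 windows, also of all 6 genes, and 45.0% of all windows hold it. The E-box CACGTG was found in 1 of the 10, that of INSIG1, and 7.26% of all windows hold it. The HMGCS1 and DHCR7 stretches shown, from a gene that rose and a gene that fell in 253J, each held 2 CCAAT boxes. The other window of each of these genes held 0, and the windows of IDI1 held 0, 3 and 2, so such counts depend on the start chosen. The matches are letters in a window and say nothing of binding in these cells.

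Levels are given as CPM, the counts of a gene scaled to a common library size by the trimmed mean of M values (TMM), and not divided by gene length, so they are compared between libraries and not between genes. A gene was called where edgeR's quasi-likelihood test gave a Benjamini-Hochberg adjusted p under 0.05 over all 21297 genes tested, and changes are log2 fold changes, treated minus control, with their standard error (SE).

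In 253J cells 4 of the 8 genes rose and 3 fell with CM-1758, against 28.8% of all tested genes called higher and 22.4% called lower. The genes that rose were HMGCS1, MVD, IDI1 and FDFT1, which act between acetoacetyl-CoA and squalene. The genes that fell were SQLE and DHCR7, which act later in the pathway, and SREBF2. INSIG1 was not called. The median log2 fold change of the 8 genes was 0.56, against 0.10 over all tested genes, and it was 0.20 without treated replicate 3 and 0.79 without treated replicate 1.

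In the other lines no gene of the set was called higher. In J82, 7 of the 8 fell, all but IDI1, against 18.5% of tested genes called lower and 24% called higher. In RT112 3 fell (SQLE, MVD and DHCR7), against 20.2% called lower and 27.4% called higher. In TCCSUP 3 fell (INSIG1, SREBF2 and DHCR7), against 22.1% called lower and 32% called higher. The median log2 fold change of the 8 genes was -0.85 in J82, -0.32 in RT112 and -0.19 in TCCSUP, against 0.05, 0.12 and 0.20 over all tested genes. Scaling by library size alone turned the TCCSUP median of the 8 genes to 0.12 and moved that of all tested genes to 0.51. Of the 32 combinations of gene and line, 20 were called, 4 higher and 16 lower, and 6 of those passed a log2 fold change of 1 in size.

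Those 6 larger changes were HMGCS1 and IDI1 (higher) and SQLE and SREBF2 (lower) in 253J, where 33.6% of tested genes were called with a change of that size in either direction, and INSIG1 and SREBF2 (lower) in TCCSUP, where 35.6% were. J82 and RT112 had none, against 24.9% and 28.7% of tested genes. In 253J both treated libraries were above both controls for 4 of the 8 genes (40.9% of tested genes) and below them for 3 (32.1%). In J82 they were above for 0 (34.8%) and below for 7 (27.9%). RT112 had 0 above (41.8%) and 4 below (32.5%), and TCCSUP had 3 above (45.4%) and 4 below (33.1%). Treated and control libraries overlapped in the other 7 combinations.

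**Figure D1:**
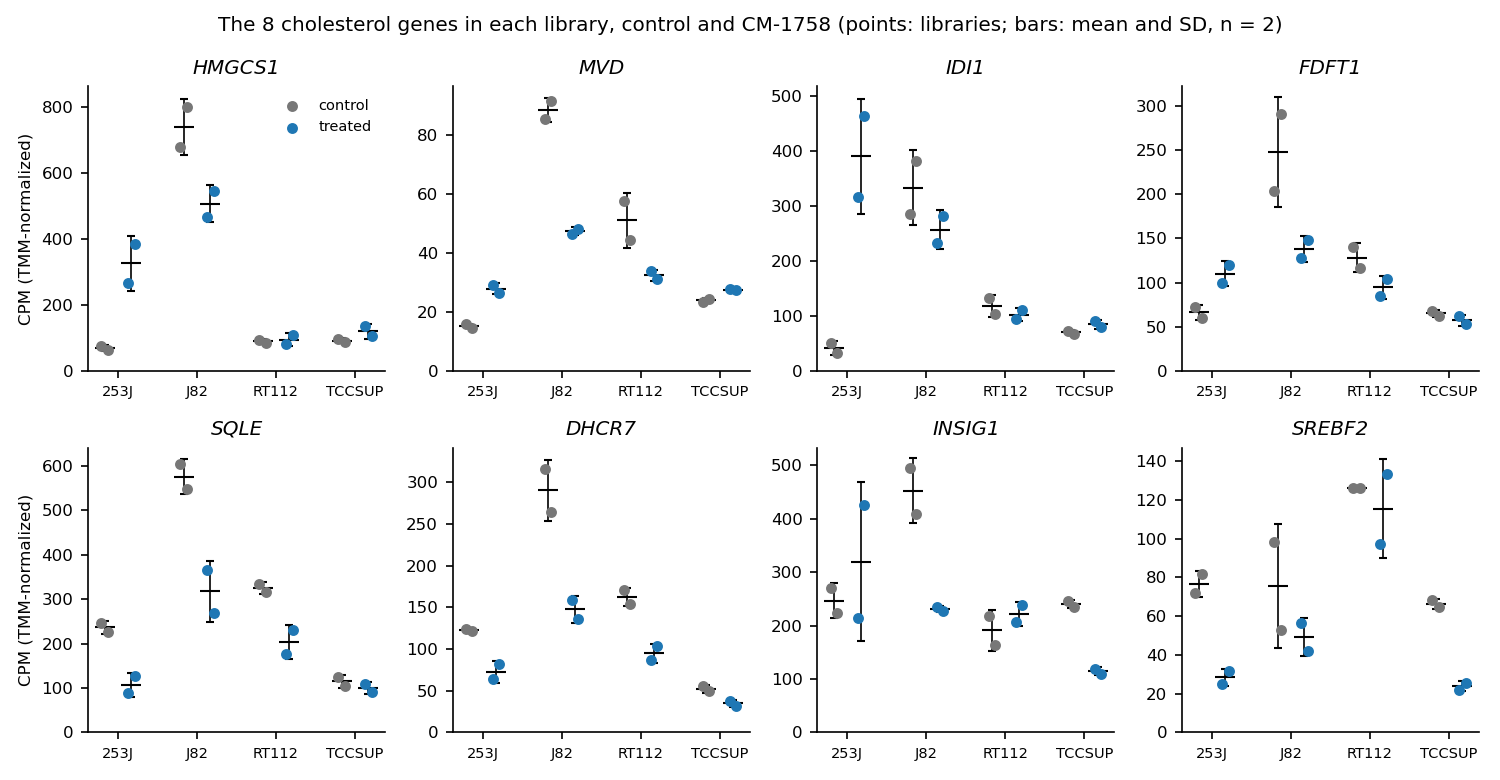
Level of each of the 8 genes in every library (vertical axis, TMM-normalized CPM from 0; horizontal axis, cell line; grey points control and blue points CM-1758, with the mean and SD of 2 libraries). The treated 253J libraries of IDI1 lie at 316.3 and 465 CPM, above both 253J controls, while DHCR7 lies lower in the treated libraries of all 4 lines.

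HMGCS1 encodes cytosolic HMG-CoA synthase, an early enzyme of the mevalonate pathway. In 253J its level was 75.9 and 63.4 CPM in the control libraries and 266 and 385 CPM in the treated ones. Both treated libraries were above both controls, and the log2 fold change was 2.22 (SE 0.21, adjusted p = 6.94e-07), or 4.67-fold. In J82 it was 678 and 799.9 CPM in controls and 467 and 546 CPM in treated libraries, so that both treated libraries were below both controls, with a log2 fold change of -0.54 (SE 0.20, adjusted p = 0.0389). That call was lost in 7 of the 16 runs with 1 library left out: without J82 control replicate 3 (-0.42), J82 treated replicate 1 (-0.36) or J82 treated replicate 3 (-0.66), and without either control library of RT112 or of TCCSUP (-0.54). In RT112 the libraries overlapped, at 94.4 and 84.6 CPM in controls and 81.5 and 108 CPM in treated cells (log2 fold change 0.09, SE 0.20, adjusted p = 0.777). In TCCSUP both treated libraries, at 136 and 105 CPM, were above the controls at 96.8 and 86.8 CPM, but the change of 0.39 (SE 0.20) was not called (adjusted p = 0.117). The J82 control level stood above that of each other line, with a log2 level of 253J controls minus J82 controls of -3.41 (SE 0.22, adjusted p = 4.70e-09).

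IDI1 encodes isopentenyl-diphosphate isomerase, which interconverts the isoprenoid building blocks. In 253J it stood at 51.2 and 32.7 CPM in controls and at 316.3 and 465 CPM in treated libraries, the largest change of the 32 combinations (log2 fold change 3.22, SE 0.25, adjusted p = 1.34e-07; 9.30-fold). In J82 the treated libraries, at 232 and 283 CPM, lay below the controls at 285 and 382 CPM, yet the change of -0.37 (SE 0.23) was not called (adjusted p = 0.208). In RT112 the libraries overlapped (132 and 103 CPM against 94.7 and 111 CPM; log2 fold change -0.20, adjusted p = 0.518). In TCCSUP the levels were 73.4 and 68.0 CPM in controls and 90.6 and 79.5 CPM in treated cells, a change of 0.27 (SE 0.23) that was not called (adjusted p = 0.349). The RefSeq span of IDI1 overlaps that of WDR37, a protein-coding gene, and the antisense gene IDI2-AS1, and whether the counting used strand is not given in the sources used here. WDR37 rose in 253J too, from 10.2 and 8.93 CPM to 27.2 and 28.2 CPM (log2 fold change 1.54, SE 0.15, adjusted p = 1.32e-06), and it rose in TCCSUP (0.77, SE 0.15, adjusted p = 0.000536), where IDI1 was not called. IDI2-AS1 held at most 42 counts in a library.

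MVD encodes mevalonate diphosphate decarboxylase, which ends the mevalonate branch. Its 253J level was 15.8 and 14.6 CPM in controls and 29.2 and 26.6 CPM in treated libraries. That rise of 0.87 on the log2 scale (SE 0.14, adjusted p = 9.69e-05) kept both treated libraries above both controls. In J82 it fell from 85.6 and 91.5 CPM to 46.5 and 48.3 CPM (log2 fold change -0.90, SE 0.13, adjusted p = 8.67e-05). In RT112 it fell from 57.7 and 44.6 CPM to 33.8 and 31.0 CPM (log2 fold change -0.66, SE 0.14, adjusted p = 0.00106). In TCCSUP the treated libraries at 27.8 and 27.4 CPM were just above the controls at 23.3 and 24.5 CPM, and the change of 0.21 (SE 0.14) was not called (adjusted p = 0.222). MVD thus rose in 1 line and fell in 2.

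FDFT1 encodes squalene synthase, the first enzyme committed to sterols. In 253J it rose from 71.9 and 60.3 CPM to 99.98 and 120.3 CPM (log2 fold change 0.74, SE 0.19, adjusted p = 0.00397). In J82 it fell from 203 and 291 CPM to 128 and 148 CPM (log2 fold change -0.84, SE 0.19, adjusted p = 0.00194). In RT112 (140.02 and 116 CPM against 84.9 and 104 CPM) and TCCSUP (67.9 and 62.5 CPM against 61.8 and 52.7 CPM) the treated libraries lay below the controls, but neither change was called (adjusted p = 0.0629 and 0.417). Without 253J control replicate 3 the rise in 253J was 0.61 and was not called. HMGCS1, MVD and FDFT1, which rose in 253J, were thus all called lower in J82.

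SQLE encodes squalene epoxidase, which oxidizes squalene and is one of the points where the pathway is controlled. In 253J it fell from 247 and 226 CPM to 87.8 and 126 CPM (log2 fold change -1.14, SE 0.20, adjusted p = 0.000236). In J82 it fell from 603 and 549 CPM to 366 and 269 CPM (log2 fold change -0.86, SE 0.20, adjusted p = 0.00283). In RT112 it fell from 335 and 315 CPM to 176 and 229.5 CPM (log2 fold change -0.68, SE 0.20, adjusted p = 0.0109). In these 3 lines no treated library reached a control, although the RT112 call was lost without RT112 control replicate 1 (-0.64) or treated replicate 1 (-0.50). In TCCSUP the libraries overlapped, at 125 and 105 CPM in controls and 109.6 and 90.8 CPM in treated cells (log2 fold change -0.20, SE 0.20, adjusted p = 0.430).

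DHCR7 encodes 7-dehydrocholesterol reductase, the last enzyme of one route to cholesterol. It fell in all 4 lines and was the only one of the 8 genes called lower in each of them. In 253J the controls were at 124 and 121 CPM and the treated libraries at 63.6 and 82.1 CPM (log2 fold change -0.75, SE 0.16, adjusted p = 0.00121). In J82 they were at 316 and 264 CPM against 159 and 136 CPM (-0.98, SE 0.16, adjusted p = 0.000201). In RT112 the levels went from 170.3 and 154 CPM to 87.0 and 103 CPM (-0.77, SE 0.16, adjusted p = 0.00116). TCCSUP had the lowest DHCR7 levels of the lines, at 56.0 and 49.1 CPM in controls and 37.8 and 32.1 CPM in treated cells (-0.59, SE 0.16, adjusted p = 0.00707). In every line both treated libraries were below both controls. The TCCSUP call was lost without TCCSUP control replicate 1 (-0.50) or treated replicate 2 (-0.47), and with scaling by library size alone (-0.28).

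INSIG1 encodes the protein that holds SCAP and SREBP2 in the endoplasmic reticulum. In J82 it fell from 496 and 409.7 CPM to 235 and 227 CPM (log2 fold change -0.97, SE 0.24, adjusted p = 0.00469). In TCCSUP it fell from 247 and 235 CPM to 119.7 and 109.9 CPM (log2 fold change -1.07, SE 0.24, adjusted p = 0.00192). In both lines the treated libraries were well below the controls. In 253J the treated libraries themselves differed, at 215 CPM in replicate 1 and 425 CPM in replicate 3, around controls of 270.2 and 224 CPM, and the change of 0.37 (SE 0.24) was not called (adjusted p = 0.213). Its sign turned on 1 treated library there, being -0.20 without treated replicate 3 and 0.78 without treated replicate 1. In RT112 the libraries overlapped, at 218 and 163 CPM against 206 and 238 CPM (log2 fold change 0.22, adjusted p = 0.488).

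SREBF2 encodes SREBP2 itself. In 253J it fell from 72.1 and 81.5 CPM to 25.2 and 31.5 CPM (log2 fold change -1.44, SE 0.25, adjusted p = 0.000175), and in TCCSUP from 68.2 and 64.6 CPM to 22.05 and 25.6 CPM (log2 fold change -1.48, SE 0.25, adjusted p = 0.000151). These were falls of 2.71-fold and 2.79-fold. In J82 the groups overlapped, since the controls were at 98.1 and 52.9 CPM and the treated libraries at 56.2 and 42.1 CPM. The J82 change of -0.62 (SE 0.24) passed the threshold only narrowly (adjusted p = 0.04998), and it was -0.11 without J82 control replicate 1. In RT112 the controls were at 126.2 and 126.1 CPM and the treated libraries at 97.4 and 134 CPM, with no call (log2 fold change -0.13, adjusted p = 0.705). The SREBF2 mRNA was lowest in the treated libraries of 253J and TCCSUP. The 4 enzymes of the set up to squalene, HMGCS1, MVD, IDI1 and FDFT1, rose in 253J and had no call in TCCSUP. With enzymes outside the set added, 9 act up to squalene, a split chosen after the values were seen. Of these 9, 6 rose and 3 fell in 253J, while of the 12 from squalene on 1 rose, 8 fell and 3 had no call. In TCCSUP 1 of the 9 rose, 2 fell and 6 had no call, while 2 of the 12 rose, 7 fell and 3 had no call. Of all tested genes, 28.8% were called higher and 22.4% lower in 253J, and 32% and 22.1% in TCCSUP. A link between these calls and the SREBF2 level was not tested. SREBF2-AS1, an antisense gene within the SREBF2 span, had at most 42 counts in a library and MIR33A at most 4.

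**Figure D2:**
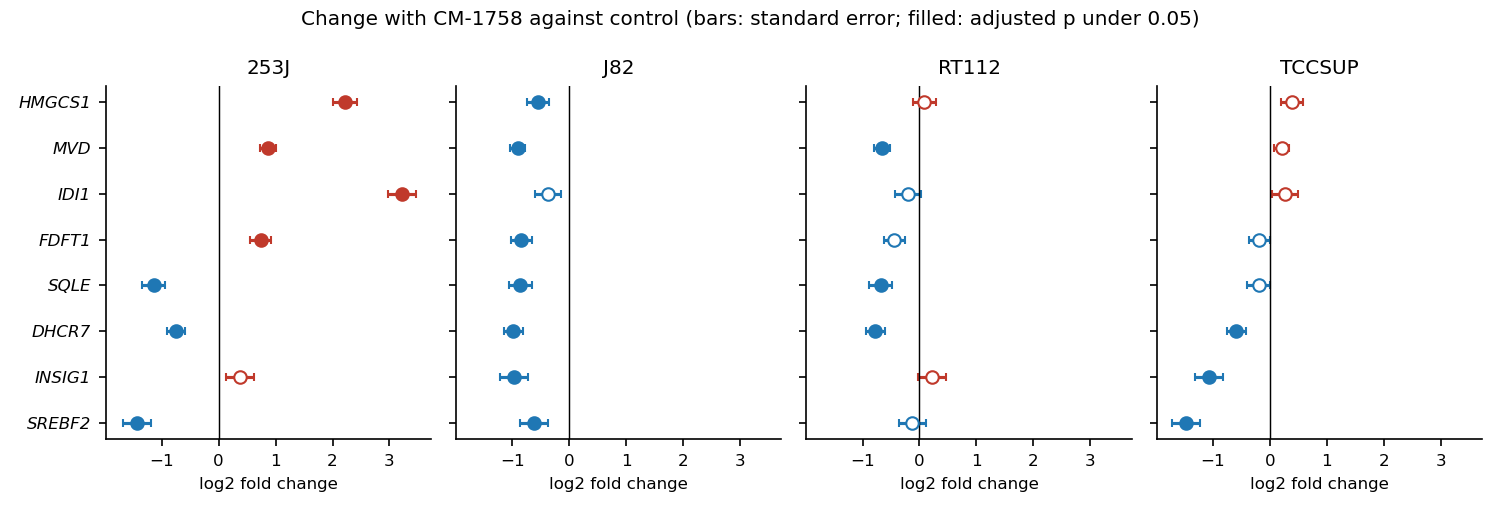
Log2 fold change, treated minus control, of the 8 genes in each line (horizontal axis; points with SE bars; filled points are called at adjusted p under 0.05, open points are not; red above 0 and blue below). HMGCS1 and IDI1 stand out to the right in 253J at 2.22 and 3.22, and DHCR7 lies left of 0 in all 4 panels.

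The question of whether the change differed between lines was tested directly, by an F test of the interaction of treatment and line. It was called for 6 of the 8 genes, against 51.9% of all tested genes: IDI1 (adjusted p = 2.09e-06), MVD (1.06e-05), HMGCS1 (1.28e-05), FDFT1 (0.000998), INSIG1 (0.00289) and SREBF2 (0.00805). It was not called for SQLE (adjusted p = 0.0562) or DHCR7 (adjusted p = 0.513). Of the 48 tests of pairs of lines, 22 were called, 16 of 24 that involve 253J and 6 of 24 that do not. For the 3 pairs with 253J, 30%, 30% and 28.6% of tested genes were called, and for the 3 pairs without it 22.2%, 22.2% and 27.5%.

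For IDI1 the change in 253J exceeded that in J82 by 3.59 on the log2 scale (SE 0.33, adjusted p = 1.99e-06), that in RT112 by 3.41 (SE 0.33, adjusted p = 3.17e-06) and that in TCCSUP by 2.95 (SE 0.33, adjusted p = 1.19e-05). HMGCS1 showed the same order, with differences of 2.77 (SE 0.29, adjusted p = 6.03e-06), 2.14 (SE 0.29, adjusted p = 5.78e-05) and 1.84 (SE 0.29, adjusted p = 0.000216). MVD and FDFT1 also changed more in 253J than in each other line, by 0.67 to 1.77 for MVD and by 0.92 to 1.58 for FDFT1, and all 6 of these tests were called. None of the 6 tests of DHCR7 was called, with differences from -0.39 to 0.23. The only SQLE pair called was 253J against TCCSUP (-0.95, SE 0.28, adjusted p = 0.0206).

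Among the 3 other lines, the change of MVD in TCCSUP differed from that in J82 (J82 minus TCCSUP -1.11, SE 0.19, adjusted p = 0.000783) and in RT112 (RT112 minus TCCSUP -0.86, SE 0.19, adjusted p = 0.00355). INSIG1 differed between RT112 and both J82 (J82 minus RT112 -1.19, SE 0.34, adjusted p = 0.0211) and TCCSUP (RT112 minus TCCSUP 1.29, SE 0.34, adjusted p = 0.0111). SREBF2 differed between RT112 and TCCSUP (1.35, SE 0.34, adjusted p = 0.00785), and the difference between 253J and TCCSUP was 0.04 (SE 0.34). HMGCS1 differed between J82 and TCCSUP (-0.93, SE 0.28, adjusted p = 0.0278). A model of line plus treatment, which gives 1 effect over the 4 lines, called SQLE (-0.72, SE 0.14, adjusted p = 0.000784), SREBF2 (-0.91, SE 0.20, adjusted p = 0.00179) and DHCR7 (-0.77, SE 0.09, adjusted p = 1.81e-05) lower and none of the 8 higher, against 20.5% of tested genes called lower and 32.4% called higher.

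Levels in the controls, harvested at 48 h like the treated cells, differed between lines in 37 of 48 tests of the 8 genes. Of all tested genes, 53.1% were called between 253J and J82, 54.3% between 253J and RT112 and 53.1% between 253J and TCCSUP. The shares were 52.1% between J82 and RT112, 48% between J82 and TCCSUP and 51.5% between RT112 and TCCSUP. By the paper's methods TCCSUP was grown in EMEM and 253J, J82 and RT112 in DMEM, so line and medium cannot be told apart for TCCSUP. J82 controls were the highest of the 4 lines for 7 of the 8 genes, the exception being SREBF2, which was highest in RT112. Mean control levels of IDI1 were 334 CPM in J82, 118 CPM in RT112, 70.7 CPM in TCCSUP and 42.0 CPM in 253J, and all 6 differences between lines were called. HMGCS1 was at 739 CPM in J82 and at 91.8, 89.5 and 69.6 CPM in TCCSUP, RT112 and 253J, and no pair of those last 3 was called. For MVD and DHCR7 all 6 pairs were called too, with MVD lowest in 253J (15.2 CPM) and DHCR7 lowest in TCCSUP (52.5 CPM). Mean SREBF2 was 126 CPM in RT112, above the others in all 3 tests, and 76.8, 75.5 and 66.4 CPM in 253J, J82 and TCCSUP, where no pair was called. The 253J line thus had the lowest control levels of HMGCS1, IDI1 and MVD of the 4 lines, though its HMGCS1 level differed by a call from J82 alone.

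**Figure D3:**
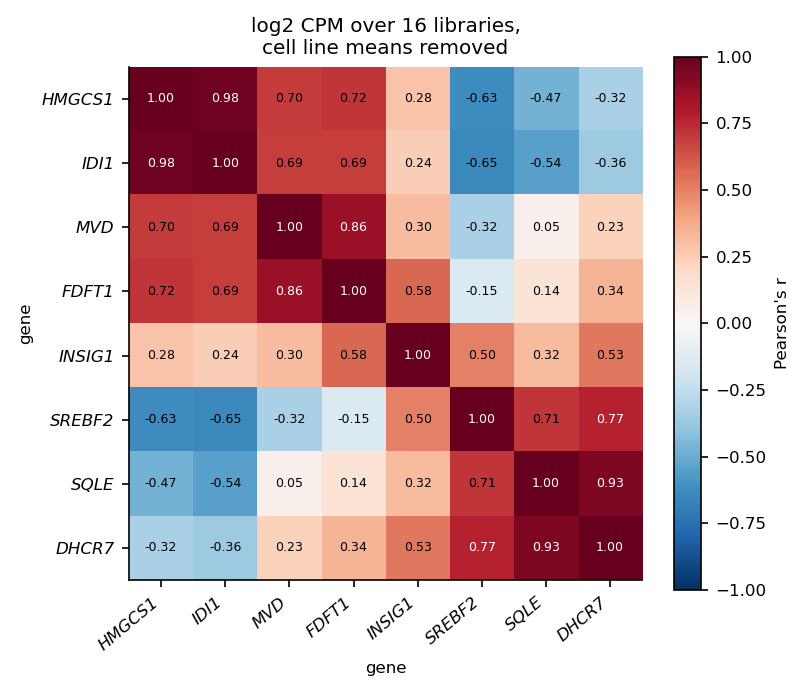
Pearson correlation of the 8 genes over 16 libraries after each line's mean log2 CPM was removed (rows and columns are genes; colour runs from -1 to 1). HMGCS1 and IDI1 stand at 0.98, and SQLE and DHCR7 at 0.93.

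With each line's mean removed, the levels of some of the 8 genes varied in close pairs over the 16 libraries. Over the 16 libraries INSIG1 had no such partner, its highest r with another of the 8 being 0.576, with FDFT1. HMGCS1 and IDI1 had r = 0.977, SQLE and DHCR7 r = 0.932, and MVD and FDFT1 r = 0.864, while HMGCS1 and SQLE had r = -0.473. These values describe libraries that share their treatment and their scaling. Without the 253J libraries, over 12, HMGCS1 and IDI1 had r = 0.851 and SQLE and DHCR7 r = 0.948, but HMGCS1 and SQLE had r = 0.431, so the sign of that value turned without the 253J libraries. SREBF2 had r = 0.713 with SQLE, 0.766 with DHCR7, -0.632 with HMGCS1 and -0.646 with IDI1 over the 16 libraries. Without the 253J libraries these values were 0.504, 0.684, -0.244 and -0.299 in the same order. INSIG1 and SREBF2 had r = 0.503 over the 16 libraries and 0.845 without the 253J libraries. The genes outside the set whose level followed the mean of the 8 most closely over the 16 libraries, among 14202 with mean log2 CPM above 0, were MAN2C1 (r = 0.918), COMMD10 (0.914), CDC16 (0.914), KANSL3 (0.911) and DNAJA4 (0.908). With line means kept, none of these 5 was among the 5 closest.

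The 15 other enzymes of cholesterol synthesis, listed from general knowledge of the pathway, give the setting. The counts of this and the following lists stand beside the shares of all tested genes called higher and lower, which were 28.8% and 22.4% for 253J, 24% and 18.5% for J82, 27.4% and 20.2% for RT112 and 32% and 22.1% for TCCSUP. In 253J 3 of these rose, 9 fell and 3 were not called, in J82 1 rose and 11 fell, in RT112 none rose and 8 fell, and in TCCSUP 3 rose and 8 fell. Their median log2 fold change was below 0 in each line, at -0.67 for 253J, -0.89 for J82, -0.74 for RT112 and -0.46 for TCCSUP. ACAT2, which joins acetyl-CoA units at the head of the pathway, fell in all 4 lines, by 0.65 on the log2 scale in 253J and by 2.25 in J82. FDPS, which makes farnesyl diphosphate, fell in all 4 lines, with log2 fold changes from -1.24 to -0.65. CYP51A1, the lanosterol demethylase, fell in all 4 (from -1.74 to -1.28), and so did EBP, a sterol isomerase (from -2.19 to -0.88). TM7SF2, a sterol reductase, had the most positive mean change of the list and rose from 2.82 to 24.6 CPM in TCCSUP (log2 fold change 3.12, SE 0.22, adjusted p = 6.01e-08).

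Taking the 6 enzymes of the set and these 15 as 21 enzymes, 253J had 7 higher, 11 lower and 3 not called. A split of the pathway at squalene, chosen after the values were seen, gave 6 higher and 3 lower of the 9 enzymes up to squalene in 253J, and 1 higher, 8 lower and 3 not called of the 12 from squalene on. In J82 16 of the 21 were lower and 1 higher, in RT112 11 were lower and none higher, and in TCCSUP 9 were lower and 3 higher.

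**Figure D4:**
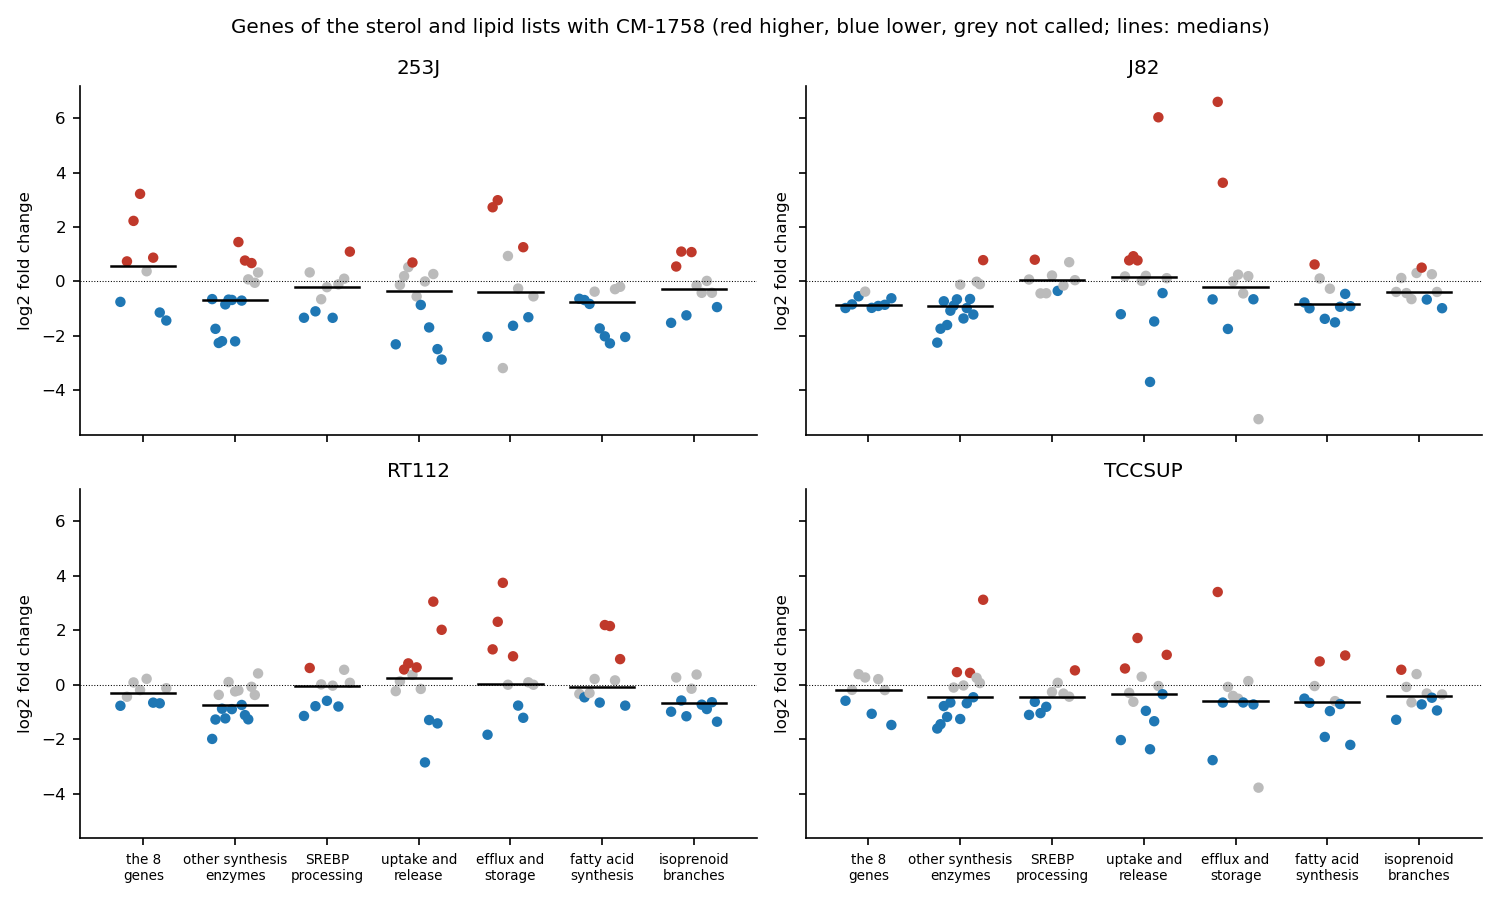
Log2 fold change, treated minus control, of the genes of the lists around the 8 genes, by cell line (vertical axis; points are genes, red called higher, blue called lower and grey not called; horizontal lines are medians; a change against a group at 0 counts, such as STARD4 in J82, depends on the prior count of the fit). The median of the 8 genes is 0.56 in 253J, and the median of the 15 other synthesis enzymes is below 0 in all 4 lines.

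Among the 9 genes of SREBP processing and sterol sensing, 3 fell and 1 rose in 253J, 1 fell and 1 rose in J82, and 4 fell and 1 rose in each of RT112 and TCCSUP. UBE2G2, a ubiquitin-conjugating enzyme of the endoplasmic reticulum's protein degradation, rose in 253J (1.09) and TCCSUP (0.53).

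Of the 12 genes of uptake and lysosomal release, 1 rose and 5 fell in 253J, 4 rose and 4 fell in J82, 5 rose and 3 fell in RT112, and 3 rose and 5 fell in TCCSUP. SCARB1, a receptor for high-density lipoprotein, fell in all 4 lines (log2 fold changes from -1.69 to -1.30), and so did TMEM97, a sterol-binding membrane protein (from -2.49 to -0.35). STARD4, a sterol carrier, rose in RT112 (3.05) and, from 0 counts in both J82 controls, was at least 2.66-fold higher in treated J82 cells against a floor of 3 counts per library, at no more than 9 counts.

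Of the 10 genes of sterol efflux and storage, 3 rose and 3 fell in 253J (28.8% and 22.4% of all tested genes), 2 rose and 3 fell in J82, 4 rose and 3 fell in RT112, and 1 rose and 4 fell in TCCSUP. Among them ABCA1 and ABCG1, both sterol exporters driven by liver X receptors, went opposite ways in all 4 lines. ABCA1 fell (log2 fold changes from -2.77 to -0.66, with J82 libraries overlapping) and ABCG1 rose, from 2.40 to 15.8 CPM in 253J, 0.148 to 14.8 CPM in J82, 70.2 to 173 CPM in RT112 and 2.38 to 25.3 CPM in TCCSUP. Of the 10 genes of fatty acid synthesis, the branch of SREBP1, 7 fell and none rose in 253J, 7 fell and 1 rose in J82, 3 fell and 3 rose in RT112, and 6 fell and 2 rose in TCCSUP. SCD, the stearoyl-CoA desaturase, ELOVL6, a fatty acid elongase, and ACLY, which makes cytosolic acetyl-CoA, fell in all 4 lines, and LPIN1, a phosphatidate phosphatase, rose in RT112 (0.94) and TCCSUP (1.07) and fell in J82 (-0.46). Of the 10 genes of isoprenoid branches, 3 rose and 3 fell in 253J, 1 rose and 2 fell in J82, none rose and 7 fell in RT112, and 1 rose and 4 fell in TCCSUP. COQ2, of ubiquinone synthesis, fell in 253J, RT112 and TCCSUP, and GGPS1, geranylgeranyl diphosphate synthase, rose in 253J (1.08, SE 0.17, adjusted p = 0.000101).

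Markers of other cell types, a list of 9, summed to between 0.421 and 21.6 CPM in a library. Their sum was higher in treated than in control libraries in 253J, J82 and RT112. In TCCSUP it was 20.7 to 21.6 CPM in controls and 19.8 to 20.5 CPM in treated cells. Of the 7 tested, 2 rose in 253J, 3 in J82 and 3 in RT112 with none lower, and 3 rose and 1 fell in TCCSUP. DES, of muscle, rose in all 4 lines (0.176 to 9.06 CPM in TCCSUP), and PTPRC, of blood cells, fell in TCCSUP (9.58 to 1.12 CPM). The 15 urothelial and epithelial markers summed to between 519 and 8639 CPM, and the sum moved with treatment in some lines. It was 3192 to 4344 CPM in 253J controls and 1879 to 2371 CPM in treated 253J cells, and 1339 to 1460 CPM in TCCSUP controls and 519 to 602 CPM in treated TCCSUP cells. In RT112 it was 8239 to 8639 CPM in controls and 6308 to 7087 CPM in treated cells, and in J82 the ranges overlapped (5970 to 8103 CPM and 6973 to 7892 CPM). Of the 15 markers, 3 rose and 4 fell in 253J, 6 rose and 1 fell in J82, 2 rose and 4 fell in RT112, and 5 rose and 6 fell in TCCSUP. KRT18, a keratin of simple epithelium, was abundant in all lines, with control means of 2327 CPM in 253J, 1845 CPM in J82, 855 CPM in RT112 and 969 CPM in TCCSUP, and it fell in 253J (log2 fold change -1.60) and TCCSUP (-2.57). CDH1, E-cadherin, fell in 253J (-2.80) and rose in J82 (2.77) and RT112 (0.90). UPK2, UPK3A and KRT5, which mark differentiated or basal urothelium, were at or under 0.449 CPM in every library of 253J, J82 and TCCSUP. KRT20 of the same list rose in every line. Its mean went from 0 CPM in 253J, J82 and TCCSUP controls to 9.44, 0.264 and 3.89 CPM. In J82 KRT20 held at most 10 counts in a library. In RT112 KRT20 went from 6.52 to 17.3 CPM. TP63 rose in 253J (0.113 to 9.44 CPM) and TCCSUP (0.832 to 3.61 CPM) and was not called in J82 or RT112. The mesenchymal markers VIM, CDH2 and ZEB1 all rose in RT112, where they summed to 4.88 to 6.24 CPM in controls and 38.1 to 42.7 CPM in treated cells, while in 253J CDH2 fell, in J82 VIM fell and ZEB1 rose, and in TCCSUP VIM rose and CDH2 fell. The part of these marker changes in the changes of the 8 genes was not tested. These markers were named after their values were seen.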

How the data were processed

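Total RNA from 16 libraries of 4 established bladder cancer lines, treated with CM-1758 or vehicle, was sequenced and deposited by the authors as 1 table of raw read counts per gene symbol, not normalized. HISAT2, StringTie and GRCh37 are named in the submitters' processing notes, without their roles. The counter and its strand setting are not given in the sources used here. Groups were taken from the sample labels.

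Counts were fitted with edgeR 4.0.16 (R 4.3.3): filterByExpr over the 8 groups, TMM, quasi-likelihood F tests, 8 residual degrees of freedom and Benjamini-Hochberg adjustment over 21297 genes. A gene was called at an adjusted p under 0.05. SE is the size of the log2 fold change divided by the root of F. The common biological coefficient of variation was 0.153. On simulated counts for 21297 genes, changes were given to genes with mean log2 CPM above 2, each in a single line drawn at random. Every gene had the common coefficient of variation. There 67 of 100 genes changed 2-fold and all 100 changed 4-fold were recovered, with 7 other calls. Far fewer genes changed than were called in the real data, so these shares need not hold there. Replicates of a group were compared and none agreed within sampling noise. Log2 CPM for correlations used a prior count of 2. Precision is limited by 2 libraries per group, and floors cover counting error only.

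The 8 genes and the lists around them were chosen with earlier results of these data known. Beyond the 8 genes, the text names from each list the genes called the same way in all 4 lines (at most 4 a list), those with the largest and smallest mean change among genes with mean log2 CPM above 0, and the 5 genes most like the 8. Some genes given by that rule are not reported here. The overlapping genes WDR37, IDI2-AS1, SREBF2-AS1 and MIR33A, and the cell type markers fall outside that rule and were named after their values were seen. Alternatives were other scalings and filters, DESeq2 1.42.0, a replicate block, thinned counts and each library left out.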

Additional observations from a re-analysis of the deposited data

Results flagged for a closer look

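For 6 of the 8 genes the change with CM-1758 differed between the 4 lines by the F test of the interaction of treatment and line in edgeR (Benjamini-Hochberg over all genes tested): IDI1 (adjusted p = 2.09e-06), MVD (adjusted p = 1.06e-05), HMGCS1 (adjusted p = 1.28e-05), FDFT1 (adjusted p = 0.000998), INSIG1 (adjusted p = 0.00289) and SREBF2 (adjusted p = 0.00805). The same test called 51.9% of all tested genes. For IDI1, MVD, HMGCS1 and FDFT1 the change in 253J was above that in each of the other 3 lines. For INSIG1 the log2 fold changes ran from -1.07 in TCCSUP to 0.37 in 253J, and for SREBF2 from -1.48 in TCCSUP to -0.13 in RT112. Each line had its own dose, so line and dose cannot be told apart.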

How the results depend on the processing

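Over the 4 lines and 8 genes, 287 of 320 log2 fold changes under the other settings kept their direction and side of the threshold, 15 lost their call, 14 gained one and 4 reversed. With 1 library left out, 481 of 512 kept both, 25 lost the call, 3 gained one and 3 reversed. The count of genes called higher in TCCSUP, 0 by edgeR's quasi-likelihood test, was 1 with edgeR or DESeq2 on each line alone, 2 with at least 10 counts in every library, 3 with library size only and 1 with the replicate block; the cause was not tested. Library size only moved the median of all genes from 0.10 to 0.37 (253J), 0.05 to 0.19 (J82), 0.12 to 0.27 (RT112) and 0.20 to 0.51 (TCCSUP), and it reversed SQLE (0.12) and FDFT1 (0.12) in TCCSUP and SREBF2 in RT112 (0.022). SREBF2 in RT112 was also reversed with at least 10 counts in every library (0.0032). Leaving out 1 library reversed INSIG1 in 253J (range -0.20 to 0.78), SREBF2 in RT112 (-0.38 to 0.080) and HMGCS1 in RT112 (-0.14 to 0.27), none of them called. SREBF2 in J82 lost its call in 9 of the 10 other settings, all but the replicate block, and in 13 of 16 runs with 1 library left out. Deviations from the group mean in control and treated libraries of the same replicate number had r = 0.409 in J82. They had r = 0.107 in RT112 and 0.0607 in TCCSUP, and 253J shares 1 number only. The numbers were not taken as pairs in the main fit, in J82 either. With the replicate block 8 of the 8 genes fell in J82, 4 fell in RT112, and 1 rose and 3 fell in TCCSUP. In 253J that block leaves the change to replicate 3 alone, with 1 control and 1 treated library. Counts for 253J and for differences between lines are therefore not given for it. The median log2 fold change of the 8 genes in 253J was 0.89 there, against 0.04 over all tested genes. Alternatives for the tests of pairs of lines, control levels and the common effect were chosen after seeing the data. None of the 5 genes closest to the 8 was shared when line means were kept (0).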
